A study of Rattus norvegicus with 6 samples.

Results

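The ERK and JNK cascade kinases examined here are 9 protein kinase genes of the mitogen-activated protein kinase (MAPK) family, taken by gene symbol from the 28293 genes of the deposited expression table. They are Map3k8 (TPL2), Map2k1 (MEK1), Map2k2 (MEK2), Map2k4 (MKK4), Mapk3 (ERK1), Mapk6 (ERK3), Mapk7 (ERK5), Mapk8 (JNK1) and Mapk9 (JNK2). Of the 9, 8 passed the filter on low values and were tested, and Mapk3 was listed at 0 in all 6 samples. RNA was sequenced from 3 sham and 3 ischemia/reperfusion (I/R) samples of myocardium from male wild type rats. In the I/R group a ligature closed the left anterior descending artery for 30 min and was released, and the heart was taken at 6 h of reperfusion, while the titles of the sham samples carry the same times. Rats of the vehicle groups of the wider study received PBS by vein, but the labels do not say so for the sequenced animals, nor which piece of the heart was taken, nor that each sample was a separate animal, so p-values measure the spread between these samples. The comparison asked which of these kinase genes differed in mRNA level between injured and sham myocardium.

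MAPK cascades are relays of 3 tiers. A MAP3 kinase such as TPL2 phosphorylates a MAP2 kinase, which phosphorylates a MAP kinase, which in turn acts on transcription factors and other kinases. MEK1 and MEK2 activate the classical ERKs such as ERK1, MEK5 activates ERK5, and MKK4 and MKK7 activate the JNKs. ERK3 is an atypical member that lacks the usual double phosphorylation motif and binds the kinase MK5. In the heart, ERK signaling is known for its part in growth and survival, and JNK signaling for its activation by stress, including ischemia and reperfusion. These kinases are regulated mainly by phosphorylation, which mRNA levels do not measure.

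The main result was that Mapk6, Map2k1 and Map2k2 rose in I/R on the deposited values, and the other 5 did not pass the test. None of the tested members fell on these values, and all 3 calls were lost on the rescaled values described below. Expression is given as FPKM, fragments per kilobase after division by library size, and a log2 fold change is the I/R minus sham difference of log2(FPKM + 0.1) from limma, given with its standard error (SE). This scale understates the change of low genes. A call is an adjusted p (Benjamini-Hochberg over 10942 genes with a mean of at least 0.5 FPKM) under 0.05. The 3 of 8 members called higher stand beside 25.5% of all genes tested, and the 0 called lower beside 7.36%. With 8 genes, these counts do not set the members apart from all genes. In 5 of the 8 every I/R value was above every sham value, which held for 37.2% of all genes, and the opposite held for 0 members and 13% of all genes. The median log2 fold change was 0.56 over the 8 members and 0.29 over all genes tested.

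The scale of the table moved with the groups. The 13 mitochondrially encoded mRNAs held 80.1% to 86.2% of the summed FPKM in sham and 61.8% to 71.5% in I/R, and a smaller share of one kind of transcript raises the FPKM of the rest. With each sample rescaled to the sum of the other genes, all genes together had a median of -0.46 on the log2 scale, and 7.25% of them were called higher and 26.1% lower. On that scale 0 members were called in either direction and their median was -0.17. Each member is therefore given on both scales. Low values moved in whole steps, from which 3.68e+07 to 4.98e+07 fragments per sample were recovered as the smallest whole-number solution, and a common multiple of these cannot be told apart. Tissue identity was checked with fixed marker lists. All 6 cardiomyocyte markers in the table were present, and 5 of 6 tested were called higher, with summed FPKM of 3220 to 10500 in sham and 21200 to 30400 in I/R. Of the 8 neutrophil and monocyte markers, 4 of 5 tested were called higher, with summed FPKM of 15.1 to 19 in sham and 34.3 to 89.2 in I/R. In bulk tissue, more or fewer cells of a type and more or less RNA per cell cannot be told apart, and the part of these markers in the results was not tested.

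**Figure D1:**
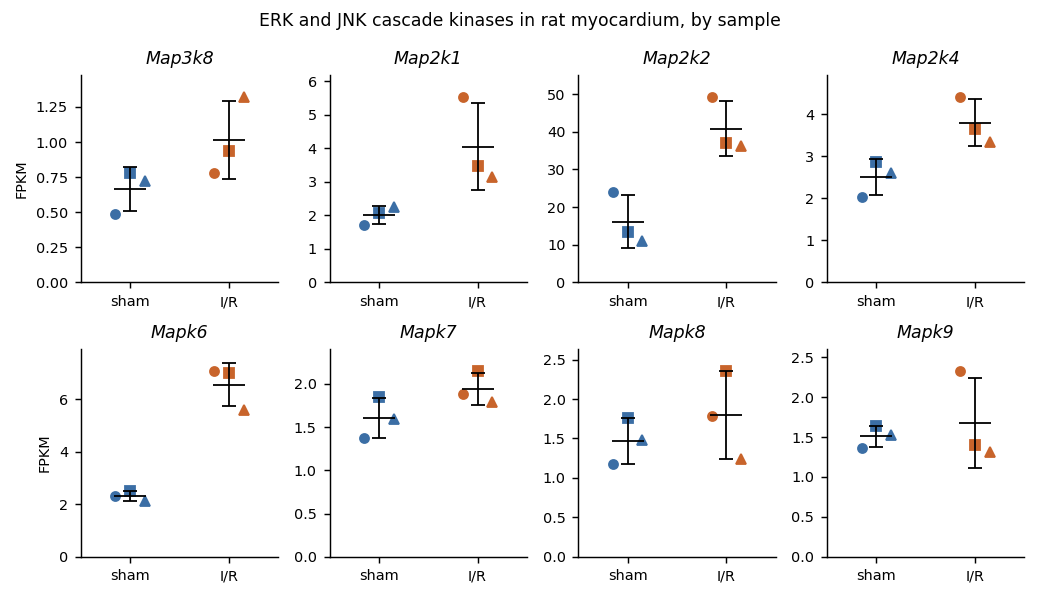
FPKM (vertical axes, linear, from 0) of the 8 tested kinase genes in the 3 sham (blue) and 3 I/R (orange) samples, with circle, square and triangle for replicates 1, 2 and 3 and black bars for the mean ± SD. The groups are separate for Mapk6, Map2k1, Map2k2, Map2k4 and, by a small margin, Map3k8, and overlap for Mapk7, Mapk8 and Mapk9.

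The promoters of the 3 genes that rose are shown so that their base composition and shared short motifs can be seen. Each is the 250 bases before the annotated start in RefSeq (build GRCr8), written 5′ to 3′ on the strand of the gene, and capitals mark GC boxes (GGGCGG) and the core of the cAMP response element (TGACG), searched on both strands. The windows are chr8:85050237-85050486 (minus strand) for Mapk6, chr8:73650185-73650434 (minus strand) for Map2k1 and chr7:9260799-9261048 (minus strand) for Map2k2.
Mapk6: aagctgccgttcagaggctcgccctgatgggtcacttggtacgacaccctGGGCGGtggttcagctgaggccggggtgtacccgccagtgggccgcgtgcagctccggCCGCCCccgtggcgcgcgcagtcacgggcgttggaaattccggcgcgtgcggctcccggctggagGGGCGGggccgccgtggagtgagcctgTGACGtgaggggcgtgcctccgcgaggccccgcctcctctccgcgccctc
Map2k1: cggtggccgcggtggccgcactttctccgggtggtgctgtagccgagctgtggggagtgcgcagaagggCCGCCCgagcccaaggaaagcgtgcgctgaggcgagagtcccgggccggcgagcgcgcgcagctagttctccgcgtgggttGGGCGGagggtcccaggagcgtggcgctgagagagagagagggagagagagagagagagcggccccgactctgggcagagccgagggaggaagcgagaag
Map2k2: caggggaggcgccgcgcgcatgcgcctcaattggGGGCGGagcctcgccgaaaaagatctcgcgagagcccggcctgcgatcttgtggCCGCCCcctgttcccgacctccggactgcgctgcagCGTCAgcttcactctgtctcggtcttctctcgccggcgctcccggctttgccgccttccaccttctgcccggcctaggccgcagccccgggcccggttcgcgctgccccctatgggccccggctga

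The Mapk6 window held 3 GC boxes and 1 TGACG, the Map2k1 window 2 GC boxes and no TGACG, and the Map2k2 window 2 GC boxes and 1 TGACG. Of the members not called, Mapk8 held 3 GC boxes and 2 TGACG, Map3k8 2 GC boxes, Mapk7 1 GC box and Map2k4 2 TGACG. These counts do not set the genes that rose apart. Promoters were given for 7 of the 9 members, without Mapk3 and Mapk9. A GC box was present in 6 of the 7, all but Map2k4, and in 30.5% of 33469 promoters of the same length. TGACG was present in 4 of the 7 and in 18.2% of all promoters. TGANTCA is a looser form of the AP-1 site of Jun and Fos proteins, which has C or G in the middle. It was present in Map2k4 as TGATTCA and in Map3k8 as TGAATCA (2 of 7), and in 6.34% of all promoters. Neither match was the strict site, whose share of all promoters was not counted. CCAAT was present in 3 of 7 and in 34% of all. The whole element TGACGTCA, which overlaps that core, was in 0 of 7 and 1.59% of all, the NF-kB motif in 0 of 7 and 3.54%, and the CArG box in 0 of 7 and 1.5%. A match is a description of these letters and not a bound site.

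Map3k8 (ENSRNOG00000016378) encodes TPL2, the MAP3 kinase that links inflammatory receptors to MEK1 and MEK2. Its expression was 0.486, 0.781 and 0.722 FPKM in sham 1 to 3 and 0.783, 0.933 and 1.32 FPKM in I/R 1 to 3. The highest sham value lay just under the lowest I/R value, so the groups did not overlap by a margin far smaller than the spread within either. It was the lowest of the 8 tested genes in both groups, with 128 to 307 recovered fragments a sample. The mean was 0.663 ± 0.156 FPKM (SD, n = 3) in sham and 1.01 ± 0.278 FPKM (SD, n = 3) in I/R. The log2 fold change of 0.54 (SE 0.32, adjusted p = 0.219, limma) did not pass the threshold, and it was -0.16 on the rescaled values. Within I/R its order followed the summed FPKM of the neutrophil and monocyte markers, which was 34.3, 70.7 and 89.2 in I/R 1 to 3. Within sham it did not, since the marker sums were 19.02, 18.62 and 15.12 in sham 1 to 3 and the sample with the most was the lowest for Map3k8. The part of these cells was not tested.

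TPL2 is held in an inactive complex with the NF-kB precursor p105, encoded by Nfkb1, and ABIN2, encoded by Tnip2. Nfkb1 rose from 3.06, 4.85 and 3.52 FPKM in sham to 9.46, 12.3 and 12.4 FPKM in I/R, a log2 fold change of 1.57 (adjusted p = 0.0035, limma). On the rescaled values it was 0.80 (adjusted p = 0.0626, limma), so the call was lost. Tnip2 lay at 3.30, 5.14 and 3.82 FPKM in sham and 4.12, 3.22 and 3.88 FPKM in I/R, with overlapping groups and a log2 fold change of -0.11 (adjusted p = 0.756, limma). On the rescaled values Tnip2 was called lower, at -0.87 (adjusted p = 0.0415, limma), and after rescaling to TPM its sign turned, to 0.09.

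The MAP2 kinases held both the most expressed member and most of the calls. Map2k2 (ENSRNOG00000020005), which encodes MEK2, was at 24.1, 13.3 and 10.9 FPKM in sham 1 to 3 and at 49.3, 37.0 and 36.2 FPKM in I/R 1 to 3. Every I/R sample was above every sham sample, and replicate 1 was the highest of its group on both sides. The mean rose 2.53-fold, from 16.1 ± 7.03 to 40.8 ± 7.34 FPKM (SD, n = 3 each). The log2 fold change was 1.40 (SE 0.31, adjusted p = 0.00962, limma), larger than the spread between replicates, and 10.1% of all genes rose more. On the rescaled values it was 0.62 (SE 0.25, adjusted p = 0.0697, limma), and after quantile normalization 0.59 (adjusted p = 0.121, limma), so the call did not hold on either. The summed FPKM of the cardiomyocyte markers stood in the same order as Map2k2. Among the single markers, Actc1 kept this order in both groups, and Myh6, Tnnt2, Tnni3, Myl2 and Ryr2 did not. The sum was 10510, 3648 and 3219 in sham 1 to 3 and 30370, 21840 and 21170 in I/R 1 to 3. The mitochondrial share stood in the reverse order, at 80.1%, 85.1% and 86.2% in sham 1 to 3 and 61.8%, 70.9% and 71.5% in I/R 1 to 3. The part of either in the rise was not tested.

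Map2k1 (ENSRNOG00000010176) encodes MEK1, the close paralog of MEK2. It was at 1.72, 2.06 and 2.27 FPKM in sham 1 to 3 and at 5.54, 3.47 and 3.16 FPKM in I/R 1 to 3. All I/R values lay above the sham values, and I/R 1 stood well above the other two. The mean rose 2.01-fold, from 2.02 ± 0.276 to 4.05 ± 1.30 FPKM (SD, n = 3 each), with a log2 fold change of 0.94 (SE 0.26, adjusted p = 0.0226, limma). It was the weakest of the 3 calls. It was lost without sham 1 (adjusted p = 0.0619), sham 2 (0.0607), sham 3 (0.0505) or I/R 1 (0.0575, limma), with log2 fold changes of 0.70 to 1.02 in these fits, and on the rescaled values, where it was 0.18 (adjusted p = 0.677, limma).

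Map2k4 (ENSRNOG00000003834) encodes MKK4, which activates JNK and also p38 kinases. It was at 2.03, 2.87 and 2.60 FPKM in sham 1 to 3 and at 4.41, 3.65 and 3.33 FPKM in I/R 1 to 3. The groups did not overlap, with I/R 1 again the highest. The means were 2.50 ± 0.425 and 3.80 ± 0.555 FPKM (SD, n = 3 each), and the log2 fold change of 0.59 (SE 0.23, adjusted p = 0.0748, limma) missed the threshold. After rescaling to TPM it passed, at 0.78 (adjusted p = 0.0411, limma), while without the mitochondrial mRNAs it was -0.17. The other JNK-activating kinase, Map2k7 (MKK7), was at 1.98, 2.75 and 2.03 FPKM in sham and 2.44, 2.26 and 2.26 FPKM in I/R. Its groups overlapped, with a log2 fold change of 0.05 (adjusted p = 0.873, limma) that turned negative after median centring, quantile normalization and rescaling. Map2k5, which encodes the activator of ERK5, had a log2 fold change of 0.35 (adjusted p = 0.342, limma), with groups that overlapped.

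Among the MAP kinases, Mapk6 (ENSRNOG00000009381), which encodes ERK3, had a log2 fold change close to that of Map2k2 and larger than those of the other tested members. Which of the pair came first varied, and Map2k2 was ahead with a pseudocount of 1 (1.35 against 1.18), without sham 1 (1.74 against 1.45) and without I/R 2 (1.47 against 1.40). It was at 2.32, 2.51 and 2.14 FPKM in sham 1 to 3 and at 7.07, 6.99 and 5.60 FPKM in I/R 1 to 3. The groups were far apart, and the lowest I/R value was more than 2 times the highest sham value. The mean rose 2.82-fold, from 2.32 ± 0.183 to 6.55 ± 0.828 FPKM (SD, n = 3 each), on 390 to 498 recovered fragments in sham and 830 to 1100 in I/R. The log2 fold change was 1.45 (SE 0.21, adjusted p = 0.00299, limma), and 9.29% of all genes rose more. The call held in every alternative that tested the gene except the rescaled values, where it was 0.69 (SE 0.28, adjusted p = 0.0677, limma). Mapkapk5, which encodes the ERK3 partner MK5, was at 5.59, 8.71 and 7.34 FPKM in sham and at 14.9, 9.89 and 10.1 FPKM in I/R, with a log2 fold change of 0.68 (adjusted p = 0.0725, limma) that missed the threshold. It passed after rescaling to TPM (0.87, adjusted p = 0.0432) and among genes with a mean of at least 5 FPKM (adjusted p = 0.0428, limma), and was -0.10 on the rescaled values.

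**Figure D2:**
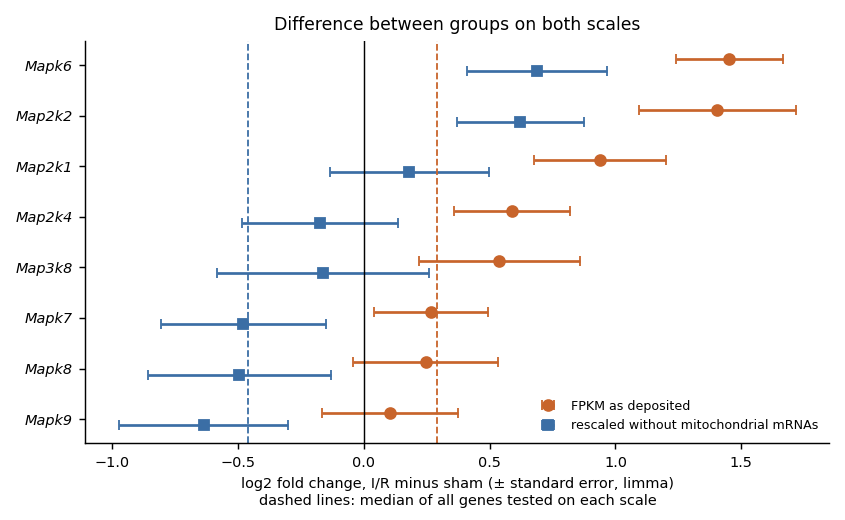
Log2 fold change (I/R minus sham, horizontal axis, ± standard error from limma) of the 8 tested kinase genes on the deposited FPKM (orange circles) and after rescaling without mitochondrial mRNAs (blue squares), with dashed lines at the median of all genes tested on each scale. Mapk6, Map2k2 and Map2k1 lie above 0 on both scales, with no member called on the rescaled values, and Map2k4, Map3k8, Mapk7, Mapk8 and Mapk9 change sign between the scales.

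The other MAP kinases showed no call. Mapk7 (ENSRNOG00000047907), which encodes ERK5, was at 1.38, 1.84 and 1.59 FPKM in sham 1 to 3 and 1.89, 2.15 and 1.79 FPKM in I/R 1 to 3. I/R 3 lay below sham 2, so the groups overlapped. Its log2 fold change was 0.27 (SE 0.23, adjusted p = 0.394, limma), close to the median of all genes, and -0.48 on the rescaled values.

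Mapk8 (ENSRNOG00000020155) and Mapk9 (ENSRNOG00000002823) encode JNK1 and JNK2, the stress-activated kinases that phosphorylate Jun. Mapk8 was at 1.17, 1.76 and 1.48 FPKM in sham 1 to 3 and at 1.79, 2.35 and 1.24 FPKM in I/R 1 to 3. Mapk9 was at 1.37, 1.64 and 1.52 FPKM in sham 1 to 3 and at 2.33, 1.41 and 1.31 FPKM in I/R 1 to 3. Both overlapped between the groups, and the high I/R sample was replicate 2 for Mapk8 and replicate 1 for Mapk9. The log2 fold change was 0.25 for Mapk8 (SE 0.29, adjusted p = 0.537, limma) and 0.10 for Mapk9 (SE 0.27, adjusted p = 0.792, limma). Both were negative after median centring and on the rescaled values, at -0.50 for Mapk8 and -0.64 for Mapk9 on the latter. Mapk10, the JNK3 gene, had 0 to 7 recovered fragments a sample and was not tested.

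Mapk3 (ENSRNOG00000053583), the ERK1 gene, was listed at 0 in every sample, as were 9067 of the 28293 genes, among them the early gene Junb. ERK1 is broadly expressed in tissues, and whether 0 stands for no transcript or for reads that the counting could not place was not tested. Reads shared by close paralogs such as Map2k1 and Map2k2 or Mapk8 and Mapk9 could be split or dropped by the counting, which leaves their levels uncertain.

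For each non-overlapping gene above, a two-sided exact permutation test over the 6 samples gave p = 0.1, the smallest that 3 against 3 allows. Replicate 1 of I/R was the highest of its group for 5 of the 8 tested members (Mapk6, Mapk9, Map2k1, Map2k2 and Map2k4). The same sample had the smallest mitochondrial share, 61.8%. Among the sham samples, replicate 1 was the lowest for 6 of the 8, all but Mapk6 and Map2k2, while its mitochondrial share of 80.1% was the smallest of that group.

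FPKM are per gene length, so levels can be ordered between genes. In sham, Map2k2 at 16.1 FPKM was first, followed by Map2k4 at 2.50, Mapk6 at 2.32, Map2k1 at 2.02, Mapk7 at 1.60, Mapk9 at 1.51, Mapk8 at 1.47 and Map3k8 at 0.663 FPKM (means, n = 3). Of these neighbours, those from Map2k4 to Mapk8 each overlapped the next in range, while Map2k2 stood above and Map3k8 below the others. In I/R the order was Map2k2 at 40.8, Mapk6 at 6.55, Map2k1 at 4.05, Map2k4 at 3.80, Mapk7 at 1.94, Mapk8 at 1.79, Mapk9 at 1.68 and Map3k8 at 1.01 FPKM (means, n = 3). Mapk6 there overlapped neither neighbour, Map2k1 overlapped Map2k4, Map2k4 lay above Mapk7, and the 4 lowest genes each overlapped the next.

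Ratios within a sample do not move with library scaling, and 3 of them were compared. The log2 ratio of Map2k4 to Map2k7, the 2 activators of JNK, was 0.03, 0.06 and 0.34 in sham 1 to 3 and 0.83, 0.67 and 0.54 in I/R 1 to 3. The groups did not overlap, and the mean log2 ratio differed by 0.53, from 0.15 ± 0.17 to 0.68 ± 0.14 (SD, n = 3 each). How often ratios of other gene pairs separate the groups was not counted. For single genes, every I/R value was above every sham value in 37.2% of those tested. The two-sided exact permutation p of Map2k4 to Map2k7 was 0.1, the smallest possible (adjusted over the 3 ratios, 0.3), which cannot pass a threshold of 0.05. The other ratios overlapped between the groups. Map2k1 to Map2k2 differed by -0.47 (exact permutation p = 0.4, adjusted 0.6), with a sham SD of 0.78 and an I/R SD of 0.18. Single samples moved it, to -0.90 without sham 1 and to -0.14 without sham 3. Mapk8 to Mapk9 differed by 0.14 (exact permutation p = 0.9, adjusted 0.9), and without I/R 2 the sign turned, to -0.17.

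**Figure D3:**
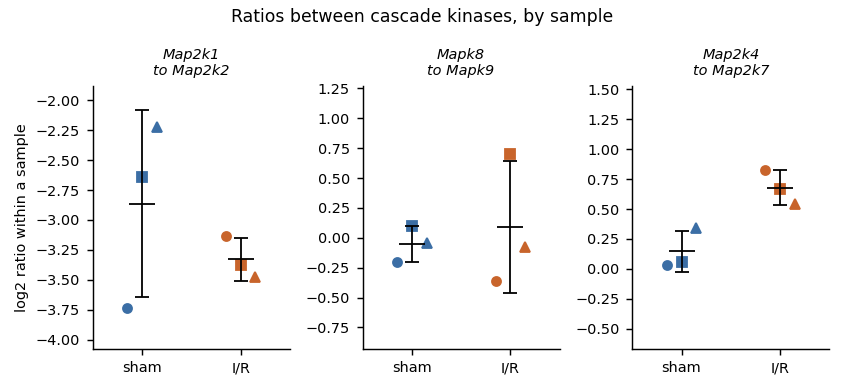
Log2 ratio of 2 kinase genes within each sample (vertical axes, log2 of FPKM + 0.1, each panel spanning the same range) in sham (blue) and I/R (orange), with the marker shape giving the replicate and black bars the mean ± SD. Map2k4 to Map2k7 is higher in every I/R sample, and Map2k1 to Map2k2 and Mapk8 to Mapk9 overlap between the groups.

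Around these kinases, 80 further genes of the ERK and JNK pathways were listed by role, of which 78 were in the table and 63 were tested. Of the 63, 19 were called higher and 4 lower, with a median log2 fold change of 0.47, beside 25.5% higher and 7.36% lower of all genes tested, so these counts were near the background. The counts of the single lists rest on few genes and are read against the same shares. Of the 63, on the rescaled values 6 were called higher and 13 lower, with a median of -0.30. Map3k15 and Dusp1 were not analysed here. Of the 2 other MAP and MAP2 kinases tested, Map2k5 and Map2k7, 0 passed in either direction (median 0.20).

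In the Ras and Raf arm, 2 of 7 tested genes were called higher and 0 lower (median 0.49), against 0 higher and 1 lower on the rescaled values (median -0.28). Those called higher were Hras, the Ras GTPase gene, with a log2 fold change of 1.11 (adjusted p = 0.0129, limma), and Grb2, the adaptor between receptors and the Ras exchange factor, with 1.08 (adjusted p = 0.008, limma). Neither was called after quantile normalization or on the rescaled values (0.33 and 0.30), and the Hras call was also lost without sham 2 (adjusted p = 0.0537) or sham 3 (0.0551, limma). Of the other MAP3 kinases, 3 of 11 were called higher and 2 lower (median -0.03), against 0 higher and 5 lower on the rescaled values (median -0.75). Map3k6 (ASK2) rose from 2.0 to 4.12 FPKM in sham to 5.93 to 12.5 FPKM in I/R, and Map3k10 (MLK2) from 0.665 to 1.43 FPKM to 1.92 to 3.30 FPKM. Map3k5 (ASK1) fell from 3.09 to 3.99 FPKM in sham to 1.48 to 1.92 FPKM in I/R, and Map3k12 (DLK) from 2.70 to 5.51 FPKM to 1.70 to 2.33 FPKM. These 4 act above the JNK branch, and their log2 fold changes were 1.56, 1.02, -0.91 and -0.84, in that order. The falls of Map3k5 and Map3k12 kept their call on the rescaled values, at -1.66 and -1.60, and the rises of Map3k6 and Map3k10 did not, at 0.80 and 0.28. The Map3k10 and Map3k12 calls were near the threshold (adjusted p = 0.0426 and 0.0459, limma) and were lost without any one of sham 2, sham 3, I/R 1, I/R 2 or I/R 3 (0.0521 to 0.156), and Map3k5 was lost without sham 2 (0.0508). Map3k10 and Map3k12 were also lost without a filter on low values and with no intensity trend (0.051 to 0.11). Median centring (0.0768) and quantile normalization (0.058) lost Map3k10, and quantile normalization also lost Map3k6 (0.0518). TPM (0.104) and a pseudocount of 1 (0.0508, limma) lost Map3k12.

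Of the scaffolds and binding partners, 3 of 8 were called higher and 1 lower (median 0.19), against 0 higher and 3 lower on the rescaled values (median -0.59). Mapk8ip1, the JNK scaffold JIP1, was at 3.51 to 4.45 FPKM in sham and 7.71 to 22.2 FPKM in I/R, with a log2 fold change of 1.52 (adjusted p = 0.0141, limma), and was not called on the rescaled values (0.74). Mapk8ip3, the scaffold JIP3, was at 6.499 to 10.7 FPKM in sham and 3.85 to 4.58 FPKM in I/R, with -0.90 (adjusted p = 0.0228, limma), and fell by 1.67 on the rescaled values, still called. Both were apart between the groups. The Mapk8ip1 call was lost without sham 2 (adjusted p = 0.0583, limma). That of Mapk8ip3 was lost without sham 2 (0.0677), I/R 1 (0.055) or I/R 3 (0.0645), and after rescaling to TPM (0.0685, limma). Of the 8 kinases downstream of ERK, 0 passed in either direction with limma (median 0.19), while at an unadjusted p under 0.05 there were 2 higher and 1 lower. After rescaling to TPM 2 were called higher, and at a mean of at least 5 FPKM 1 was. With median centring, quantile normalization, no intensity trend or the rescaled values 1 was called lower, with a median of -0.57 on the last.

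Of the 12 inhibitors of these pathways tested, 5 were called higher and 1 lower (median 0.74), against 1 higher and 1 lower on the rescaled values (median 0.01). Spry4, a Sprouty protein gene induced by ERK signaling that restrains it, was at 0.824, 0.667 and 0.312 FPKM in sham and 6.99, 6.72 and 3.87 FPKM in I/R, a log2 fold change of 3.12 (adjusted p = 0.00113, limma). Dusp8, a phosphatase of JNK and p38 kinases, had 1.78 (adjusted p = 0.0178, limma). Rasa1, a GTPase-activating protein that turns Ras off, fell from 3.36, 6.64 and 6.07 FPKM to 3.24, 2.16 and 2.13 FPKM, by 1.03 on the log2 scale (adjusted p = 0.0268, limma). Spry4 and Rasa1 were called in the same direction on the rescaled values, at 2.41 and -1.80, and Dusp8 was not, at 1.07. The Dusp8 call was lost without I/R 1 (adjusted p = 0.0653, limma) and without a filter on low values (0.0652). That of Rasa1 was lost without sham 2 (0.0979), sham 3 (0.0951), I/R 2 (0.0742) or I/R 3 (0.0768). It was also lost without that filter (0.0696) and after rescaling to TPM (0.0657, limma).

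Of the 15 responsive transcription factors and early genes tested, 6 were called higher and 0 lower (median 0.95), and on the rescaled values 5 were higher and 2 lower (median 0.21). With the replicate number as a block 8 were called higher, adding Jun (adjusted p = 0.0816 without and 0.00491 with the block) and Elk1 (0.0587 and 0.0483, limma). Fos, the AP-1 partner of Jun, was at 0.611, 0.530 and 0.420 FPKM in sham and 50.7, 8.74 and 9.81 FPKM in I/R. Egr1, a zinc finger factor induced through ERK and Elk proteins, was at 1.78, 1.15 and 1.21 FPKM in sham and 64.7, 22.5 and 21.4 FPKM in I/R. Both were far apart between the groups, with I/R 1 the highest by a wide margin. Their log2 fold changes were 4.74 for Fos (adjusted p = 0.00143, limma) and 4.44 for Egr1 (adjusted p = 0.000474, limma), and both were called in every alternative that tested them.

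**Figure D4:**
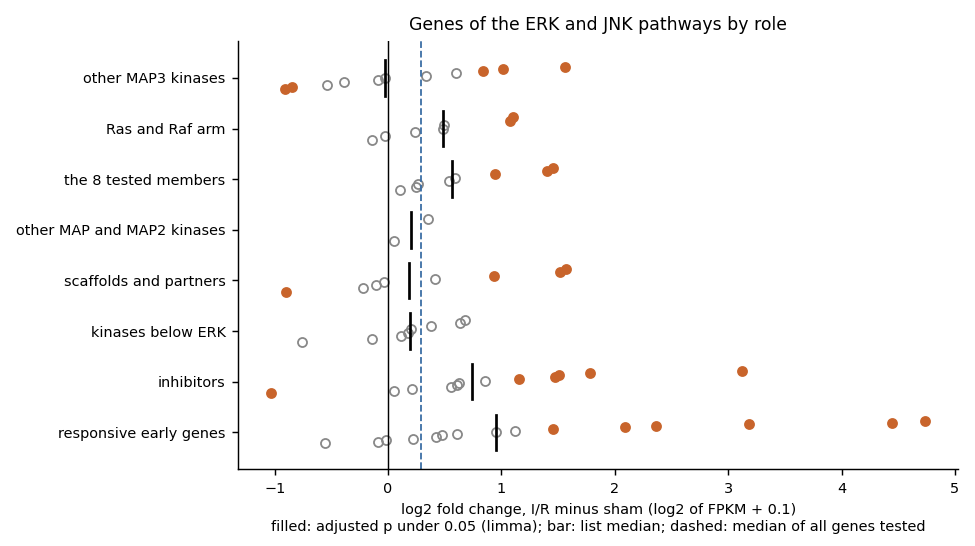
Log2 fold change (I/R minus sham, horizontal axis) of the tested genes of each ERK and JNK pathway list, 1 point per gene, filled where limma called the gene, with black bars at the list medians and a dashed line at the median of all genes tested (0.29). The medians run from -0.03 for the other MAP3 kinases to 0.95 for the early genes, and on values rescaled without mitochondrial mRNAs all but the inhibitors and early genes have medians under 0.

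The genes whose pattern over the 6 samples was most like that of a member were found by the Euclidean distance between log2 values after each gene's mean was removed, as a description. For Mapk6 they were Stat3 (distance 0.222, Pearson r = 0.993), Hspa8 (0.230, r = 0.997) and Kpna1 (0.241, r = 0.991). For Map2k2 they were Atp6v1fnb (0.154), Adrm1 (0.168) and Bsg (0.178), each with r = 0.997. For Map3k8 they were Frmd4a (0.170, r = 0.984), AABR07034639.1 (0.214, r = 0.976) and RGD1308430 (0.281, r = 0.954). The points of each r are 6 libraries in 2 groups that differ in depth and mitochondrial share, which all genes of a library have in common.

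The marker lists of other cell types gave the following. Fibroblast markers had 2 called higher and 0 lower of 7 tested, with summed FPKM of 420 to 581 in sham and 605 to 669 in I/R. Endothelial markers had 0 called of 7, with 173 to 227 and 170 to 213. Smooth muscle markers had 0 called of 5, with 66 to 267 and 108 to 302. Macrophage markers had 1 higher and 2 lower of 7, with 38.3 to 44.6 and 51.4 to 63. Lymphocyte markers had 0 called of 3, with 6.84 to 9.82 and 7.3 to 10.9, and the red cell gene Hba-a2 was not called, with 1060 to 1150 and 583 to 1670. On the rescaled values 0 fibroblast markers were called higher and 2 lower, 4 endothelial markers lower (median -0.99), 2 macrophage markers lower and 1 lymphocyte marker lower, with 0 higher in each, while 4 cardiomyocyte and 2 neutrophil and monocyte markers were still called higher. No marker list in the table held a gene listed at 0 in every sample.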

How the data were processed

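Total RNA of 3 sham and 3 I/R samples of rat myocardium was sequenced with a stranded library kit. The authors deposited 1 table of FPKM values per gene and sample; the submitters' processing notes name STAR and HTSeq, and the genome build, the annotation and the total divided by are not given in the sources used here. Rows with the same symbol were summed. Log2(FPKM + 0.1) was compared between the groups for 10942 genes with a mean of at least 0.5 FPKM, with limma 3.58.1 in R 4.3.3 (intensity trend, Benjamini-Hochberg adjustment, threshold 0.05), and the code was tested on simulated data. FPKM are no counts, so no count test was run. In 7191 of 7196 genes with a mean of 0.5 to 5 FPKM (99.93%, tolerance 0.001 fragments), the values gave whole fragments at 1 length a gene.

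The members and lists were chosen with earlier results of these data known. Named genes are the 9 members, close partners, and in each other list, among genes called, the 2 that rose most and the 2 that fell most, with the 3 genes nearest in pattern to Mapk6, Map2k2 and Map3k8. Replicate numbers come from the sample titles, and no source says that they mark a shared batch or day. After the group mean was taken away, samples with the same number correlated across genes at 0.203, 0.117 and 0.118, all over 0.1 (sham 3 and I/R 2 also reached 0.12), so a fit with the replicate number as a block was made beside the reported one. Other pseudocounts, filters and scalings, and leaving out each sample, were the alternatives. Some listed partner genes, with their ratios to members, are not reported here and are left out of the list counts.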

Additional observations from a re-analysis of the deposited data

How the results depend on the processing

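In the fit that paired same-numbered samples (replicate block), the same 3 members were called higher and 3085 genes were higher and 895 lower, and no call of the genes named by the rule changed, while Jun and Elk1 of the early gene list were added. Mapk6, Map2k1 and Map2k2 kept a positive log2 fold change in every alternative that tested them. Of all calls, 77.6% were higher as reported. At a mean of at least 5 FPKM, where Map2k2 was the only member tested, 1 member was called higher and 166 of all genes lower (91.9% of calls higher). After TPM, 504 genes were lower (87.3% higher) and Tnip2 turned to 0.085. Median centring gave 1554 lower (56.5% higher) and turned Mapk8 to -0.004, Mapk9 to -0.145 and Map2k7 to -0.196. Quantile normalization gave 1441 higher and 1559 lower (48%) and turned Mapk9 to -0.003 and Map2k7 to -0.13. Rescaling without mitochondrial mRNAs left 0 members higher, with 793 genes higher and 2857 lower (21.7%), and turned Mapk7 to -0.48, Mapk8 to -0.496, Mapk9 to -0.637, Map2k4 to -0.174, Map3k8 to -0.163, Map2k7 to -0.7, Map2k5 to -0.413 and Mapkapk5 to -0.102. Without any filter on low values, Map2k1 lost its call (adjusted p = 0.0567, limma) among 19226 genes tested. With 1 sample left out at a time, all genes called numbered 1528 (without sham 3) to 2557 higher and 309 (without sham 2) to 881 lower, also 359 lower without sham 3. The log2 fold changes then ran from -0.142 to 0.252 for Mapk9, -0.026 to 0.198 for Map2k7 and -0.246 to 0.067 for Tnip2, and the log2 ratio of Mapk8 to Mapk9 from -0.167 to 0.366. None of these values was past the threshold. Apart from what the scaling itself changes, the cause was not tested. Among the tested members depth limits Map3k8 most, at 128 recovered fragments in its smallest sample. Of the tested partner and pathway genes named, Fos, Dusp8 and Spry4 had fewer (32, 33 and 76), and the untested Mapk10 had 0 to 7.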
